A study of Bos taurus with 7 samples.

Results

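Bovine blastocysts grown from oocytes that had matured in vitro with IO+DHEA, the treatment that stood for inhibition of glucose metabolism, were compared with blastocysts from untreated control oocytes. The comparison used the 2 libraries with the treatment label IO+DHEA and the 2 with the label Control, 4 of the 7 RNA sequencing libraries of the series. The other libraries, from oocytes matured with etomoxir, were used to estimate the spread of each gene and to class genes by level. Treatment was applied to the oocyte, and the RNA was that of the embryo at the blastocyst stage. The labels give no dose, no number of embryos per library, and no word on whether the replicates were separate cultures or came from different animals. The p-values therefore measure the spread between libraries of a group, which may be technical and is taken as equal in all groups. The IO+DHEA libraries lay further apart than those of the other groups. The shared spread, and with it the p-values and the number of calls, may thus not hold for them. In such bulk samples fewer cells of a type and less RNA per cell cannot be told apart.

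A maturing oocyte uses little glucose for energy by itself. The cumulus cells around it break glucose down to pyruvate, which the oocyte oxidises, while the pentose phosphate pathway supplies NADPH for reduction of glutathione and ribose for nucleotides. DHEA is the usual abbreviation of dehydroepiandrosterone, a steroid known to inhibit glucose-6-phosphate dehydrogenase, the entry enzyme of the pentose phosphate pathway. The sources used here do not spell out IO. The blastocyst forms after the embryo's own genome has been switched on, so most of its transcripts are made after the treated stage.

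Of 27607 Ensembl gene IDs, 14129 had at least 10 counts in at least 2 of the 4 libraries, 10047 had 0 counts in all 4, and 3431 had counts but fell under the filter. The files pair no ID with a symbol, and 0 IDs matched the RefSeq gene table used here. Genes are therefore described as sets and by the 2 largest rises and the 2 largest falls among abundant genes, without a known function. Whether the libraries carry the markers of a blastocyst, or of cumulus or other cells, was not checked for the same reason.

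The largest changes among abundant genes were 11.3 to 29.6-fold in the fit. They were present in each IO+DHEA library, which also held for all 1147 called genes and so adds no support. They were taken from 544 called genes, 239 higher and 305 lower in IO+DHEA, whose mean over the 4 libraries was 50 CPM or more. That mean includes both groups, so the 2 rises reached it through IO+DHEA and the 2 falls through the controls. CPM, counts scaled to 1000000 per library, is given on library totals adjusted by the trimmed mean of M-values (TMM), which corrects for differences in composition. Calls were made by the quasi-likelihood test of edgeR with 7 libraries in the fit, where the p-value, adjusted over all genes tested by Benjamini-Hochberg, was under 0.05.

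ENSBTAG00000049812 was at 8.53 CPM in control library 1 and 10.1 CPM in control library 2, from 746 and 1109 counts. It was at 215 and 337 CPM in IO+DHEA libraries 1 and 2, from 16450 and 38674 counts. The groups did not overlap, and both treated libraries lay more than 20 times above both controls, with pairwise folds from 21.2 to 39.4. In order of abundance among the genes tested it stood at place 6309 and 6049 in the controls and at 1077 and 545 in IO+DHEA. The group means were 9.33 ± 1.13 CPM for control (SD, n = 2) and 276 ± 86.3 CPM for IO+DHEA (SD, n = 2). The fitted log2 fold change was 4.89 ± 0.72 (SE), or 29.6-fold, with an edgeR adjusted p of 0.0159. That p was 0.104 without control library 1 and 0.130 without control library 2, and 0.125 when the 4 libraries were fitted alone.

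ENSBTAG00000048955 was at 3.75 and 6.04 CPM in control libraries 1 and 2, from 328 and 661 counts. In IO+DHEA it was at 128 and 119 CPM in libraries 1 and 2, from 9781 and 13676 counts. The IO+DHEA libraries were close to each other here, and the spread of the pairwise folds, 19.7 to 33.9, came mostly from the controls. The means were 4.89 ± 1.62 CPM for control (SD, n = 2) and 124 ± 6.14 CPM for IO+DHEA (SD, n = 2). The log2 fold change was 4.66 ± 0.61 (SE), or 25.2-fold, with an edgeR adjusted p of 0.0131. Dropping control library 1 or 2 gave 0.0883 and 0.0977, and the 4 libraries alone gave 0.125.

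ENSBTAG00000052397 had the largest fall. Its level was 123 and 190 CPM in control libraries 1 and 2, and 3.88 and 8.07 CPM in IO+DHEA libraries 1 and 2. These values rest on 10798 and 20842 control counts, against 297 and 926 after treatment. Both treated libraries were far below both controls, by 15.3 to 48.8-fold. The libraries within a group were also apart, and the groups did not overlap. Means were 157 ± 47.3 CPM for control (SD, n = 2) and 5.98 ± 2.96 CPM for IO+DHEA (SD, n = 2). The log2 fold change was -4.71 ± 0.44 (SE), or 26.2-fold lower, with an edgeR adjusted p of 0.0053, and 0.155 with the 4 libraries alone. Etomoxir libraries lay between the groups, at 60.3, 80.6 and 67.1 CPM.

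ENSBTAG00000002290 fell by less, with replicates close together. It was at 133 and 153 CPM in control libraries 1 and 2, and at 11.1 and 14.3 CPM in IO+DHEA libraries 1 and 2. Counts were 11676 and 16765 against 850 and 1636, and every treated library was 9.35 to 13.8-fold below a control. Its means were 143 ± 13.9 CPM for control (SD, n = 2) and 12.7 ± 2.23 CPM for IO+DHEA (SD, n = 2). The fit gave a log2 fold change of -3.50 ± 0.23 (SE), or 11.3-fold lower, with an edgeR adjusted p of 0.00224, the smallest of all genes tested. With the 4 libraries alone that p was 0.125. The etomoxir libraries, at 145, 130 and 152 CPM, stood at the level of the controls.

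**Figure D1:**
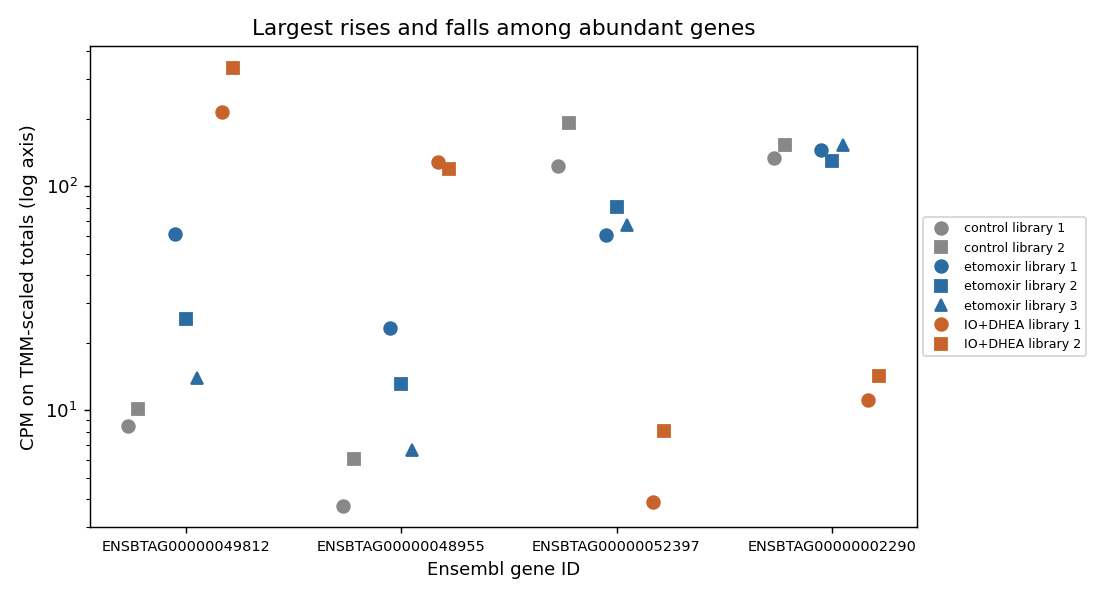
Level of the 4 named genes in every library, in CPM on a log axis. Points are single libraries, coloured by treatment. For each gene both IO+DHEA libraries lie apart from both controls, above 100 CPM for the genes that rose and under 15 CPM for the genes that fell.

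The IO+DHEA libraries differed from the controls at many genes, and also from each other. Over the 14129 genes, 6121 (43.3%) were at least 2-fold apart between IO+DHEA libraries 1 and 2, against 2926 (20.7%) between the controls. An IO+DHEA library and a control were at least 2-fold apart at 5903 to 7317 genes, 41.8% to 51.8%. These differences use log2 CPM with a prior count of 2. The median absolute log2 difference was 0.84 between the IO+DHEA libraries and 0.40 between the controls, while an IO+DHEA library and a control differed by 0.81 to 1.04. The distance between the treated libraries was thus within the range of the distances between treatment and control when genes of all levels were taken. Over the 7522 genes that averaged 5 CPM or more in etomoxir it was not: the IO+DHEA libraries differed by 0.59, below the 0.61 to 0.78 between an IO+DHEA library and a control, and the controls by 0.27.

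IO+DHEA library 1 lacked more transcripts than the others. Among the genes passing the filter, 1735 (12.3%) were at 0 in IO+DHEA library 1 and 537 (3.80%) in library 2, against 352 (2.49%) and 208 (1.47%) in control libraries 1 and 2. In the comparison, totals ran from 87096323 counts in control library 1 to 111170317 in control library 2, and the etomoxir libraries held 84739741 to 122061453. By raw total, at 90842836 counts, IO+DHEA library 1 was not the shallowest, but its TMM-scaled total was the smallest. Whether depth accounts for its zeros was not tested. Where a gene was at 0, up to 3 counts could have been missed, equal to 0.0392 CPM in IO+DHEA library 1 and 0.0261 to 0.0343 CPM in the other libraries of the comparison. This covers counting error only and takes a count as a fragment. TMM factors were 0.842 for IO+DHEA library 1 against 0.985 to 1.09 in the other libraries.

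Agreement was counted as a gene at least 2-fold above both controls, or at least 2-fold below both, in each IO+DHEA library. By this rule 612 genes (4.33%) were higher in both treated libraries and 1305 (9.24%) were lower in both. Another 3073 genes passed 2-fold in IO+DHEA library 1 alone and 1894 in library 2 alone. In 575 genes the libraries went opposite ways: 426 were higher in library 2 and lower in library 1, and 149 the reverse. Both libraries were set against the same controls, so they share the error of these. As shares, 31.5% of the 1944 genes higher in library 1 were also higher in library 2, and 31.9% of the 1918 higher in library 2 were also higher in library 1. For lower genes the shares were 36.0% of 3621 in library 1 and 52.9% of 2468 in library 2. Of all genes tested, 13.8% were higher and 25.6% lower in library 1, and 13.6% were higher and 17.5% lower in library 2. These counts are descriptions with no test, and leaving out a library asks for fewer pairs to agree. There were then 1226 and 1092 higher genes without control libraries 1 and 2, and 2026 and 1943 without IO+DHEA libraries 1 and 2. Lower genes numbered 2401 and 3620 without IO+DHEA libraries 1 and 2.

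Opposite changes were mostly in genes of low level. Levels were taken from the mean of the etomoxir libraries, which lie on neither side of the comparison. Of 3545 genes under 1 CPM there, 366 (10.3%) went opposite ways, and 39.0% were at 0 in IO+DHEA library 1. Between 1 and 5 CPM 158 of 3062 genes (5.16%) did so, and between 5 and 50 CPM 50 of 4480 (1.12%). Of the 3042 genes at 50 CPM or more, 1 went opposite ways, against 67 (2.20%) higher in both libraries and 236 (7.76%) lower in both. In the lowest classes a gene could pass the filter through 1 group only, and dropout of rare transcripts cannot be told apart from a response there.

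Among the 7522 genes of at least 5 CPM in etomoxir, 169 (2.25%) were higher and 593 (7.88%) lower in both IO+DHEA libraries. In every pair of libraries 19 genes were at least 4-fold higher and 107 at least 4-fold lower, and 6 and 13 passed 8-fold. In this class 535 genes were higher and 755 lower in library 1 alone, and 283 were higher and 586 lower in library 2 alone. The order of the higher genes turned on the scaling, with 266 in library 1 alone and 431 in library 2 alone on library totals without factors. How far lower genes outnumbered higher ones turned on the scaling, with 328 higher and 413 lower by upper quartile factors and 211 and 530 by median-of-ratios factors. Among genes of at least 50 CPM, 323 (10.6%) were higher in library 1 alone and 44 (1.45%) in library 2 alone. These were 166 and 93 on library totals without factors. In this class, unlike that of at least 5 CPM, more genes were higher in library 1 alone under each scaling tried.

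**Figure D2:**
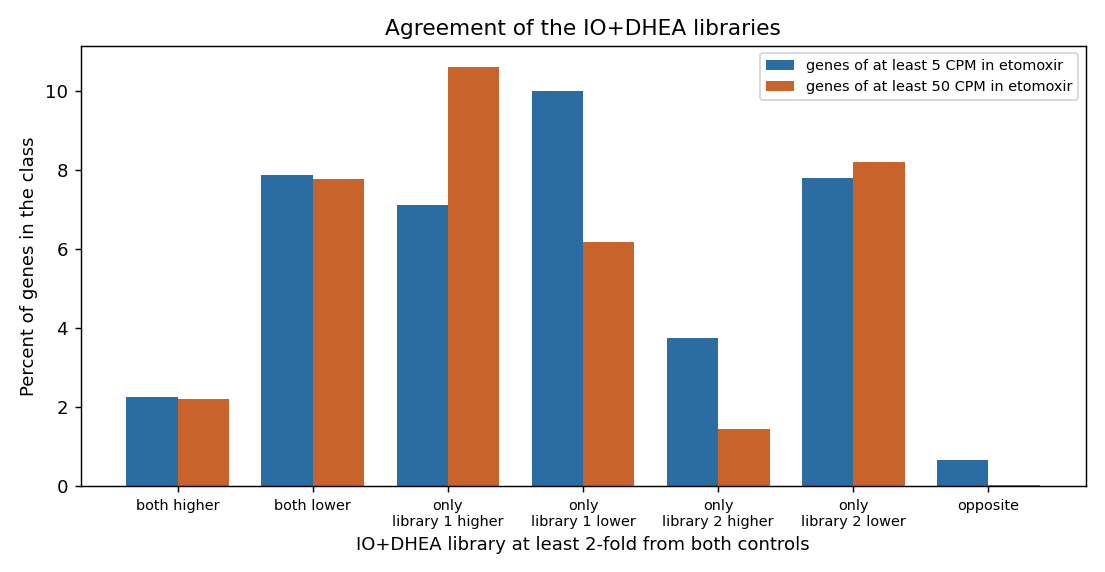
Percent of genes at least 2-fold from both controls, by which IO+DHEA library passed and in which direction, for genes of at least 5 CPM and at least 50 CPM in etomoxir. Genes lower in both libraries make up 7.88% and 7.76% of these classes, while opposite changes make up 0.678% and 0.0329%.

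Pairs of libraries that share no library showed partial agreement among genes of at least 5 CPM in etomoxir. Of the 1639 genes of at least 5 CPM that were at least 2-fold lower in IO+DHEA library 1 than in control library 1, 768 (46.9%) were also at least 2-fold lower in IO+DHEA library 2 than in control library 2, and 95 (5.80%) were at least 2-fold higher. Over all genes of that class, 21.6% were lower and 10.9% higher by that amount in the pair of number 2. Of the 967 genes at least 2-fold higher in the pair of number 1, 291 (30.1%) were higher and 66 (6.83%) lower in the pair of number 2. With the controls exchanged, 754 of 1817 lower genes (41.5%) and 259 of 1083 higher genes (23.9%) were shared. The sets read in the other pair had a median log2 difference of -0.92 for the lower and 0.71 for the higher genes, beside -0.19 over the class. Across these 7522 genes Pearson's r of the differences was 0.342, and 0.379 with the controls exchanged, where the pairs share gene-specific spread and base composition but no library. Over all 14129 genes r was 0.134 and 0.150. Among all genes, 2934 were at least 2-fold higher in the pair of number 2. Of these, 31.0% were at least 2-fold higher and 31.0% lower in the pair of number 1. For the 1161 at least 4-fold higher, the shares were 31.5% and 40.6%, so in this reading more of them were lower than higher. Of the 3332 at least 2-fold lower, 49.6% were lower and 12.7% higher. Over all genes, 18.8% were higher and 30.2% lower in the pair of number 1. The reverse reading differed for higher genes. Of the 893 genes at least 4-fold higher in the pair of number 1, 41.7% were at least 2-fold higher in the pair of number 2. Another 25.1% were at least 2-fold lower there, where the shares over all genes were 20.8% higher and 23.6% lower.

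**Figure D3:**
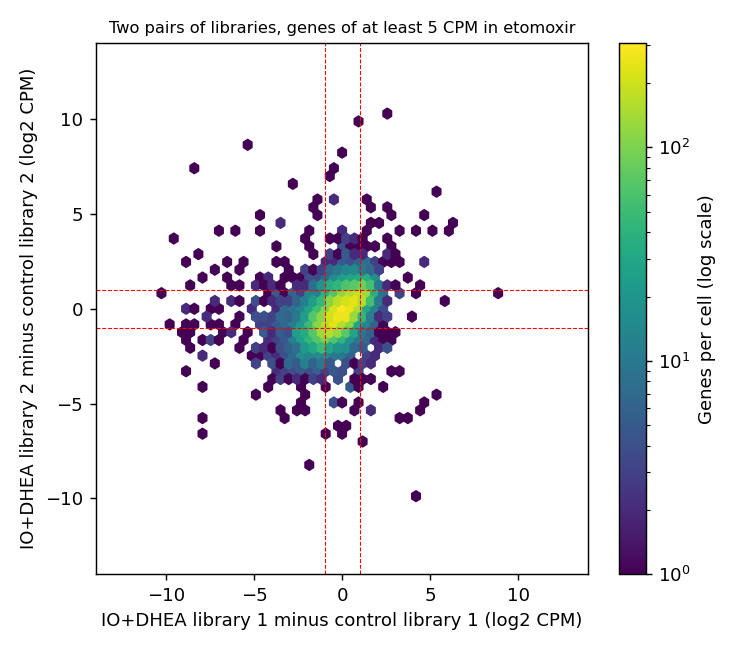
Log2 CPM difference of IO+DHEA library 1 from control library 1 (horizontal) against that of IO+DHEA library 2 from control library 2 (vertical), for 7522 genes of at least 5 CPM in etomoxir; colour gives the number of genes per cell on a log scale and dashed lines mark 2-fold. More genes fall in the lower left corner (768) than in the upper right (291), and 66 and 95 fall in the opposite corners.

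By edgeR 1147 of the 14129 genes changed (8.12%), 360 higher (2.55%) and 787 lower (5.57%) in IO+DHEA. Genes that rose had a median log2 fold change of 1.33 and genes that fell one of -1.67, beside 0.01 over all genes tested. Folds of 2 to 4 made up 256 of the rises and 467 of the falls. Between 4 and 8-fold there were 21 rises and 149 falls, and over 8-fold 37 and 123. For all 1147 both IO+DHEA libraries lay on the same side of both controls, as for 7271 of all genes tested (51.5%). Of the called genes 759 (66.2%) were also at least 2-fold apart in every pair of libraries. In turn, 174 of the 612 genes higher in both (28.4%) and 585 of the 1305 lower in both (44.8%) were called.

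On the called genes the treated libraries lay close together, which the test favours, so it is a description only. For the called genes the median absolute log2 difference was 0.36 between the IO+DHEA libraries and 0.23 between the controls. It was 0.84 and 0.40 over all genes tested. Over the 7522 genes of at least 5 CPM in etomoxir, which held 1002 of the called genes, it was 0.59 and 0.27. Among genes that rose, 238 of 360 were higher in IO+DHEA library 1 than in library 2, and among those that fell 358 of 787 were. Over all genes tested it was 6672 of 14129, so only the rises stood apart from that share. Calls also grew with level, from 1.47% of genes under 1 CPM in etomoxir and 8.84% at 5 to 50 CPM to 20.4% at 50 to 500 CPM and 16.3% over 500 CPM. Since higher counts are also more precise, effect sizes cannot be compared between levels by these shares.

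In the RNA as a whole the called genes were a sizeable part. Genes called lower took 13.6% and 14.3% of the counts in control libraries 1 and 2, and 4.73% and 5.19% in IO+DHEA libraries 1 and 2. Genes called higher took 4.80% and 4.28% of the control counts, against 10.4% and 11% after treatment. The treated libraries were alike in these shares, although they differed at many single genes. Since the genes were chosen on these libraries, the shares are a description only.

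**Figure D4:**
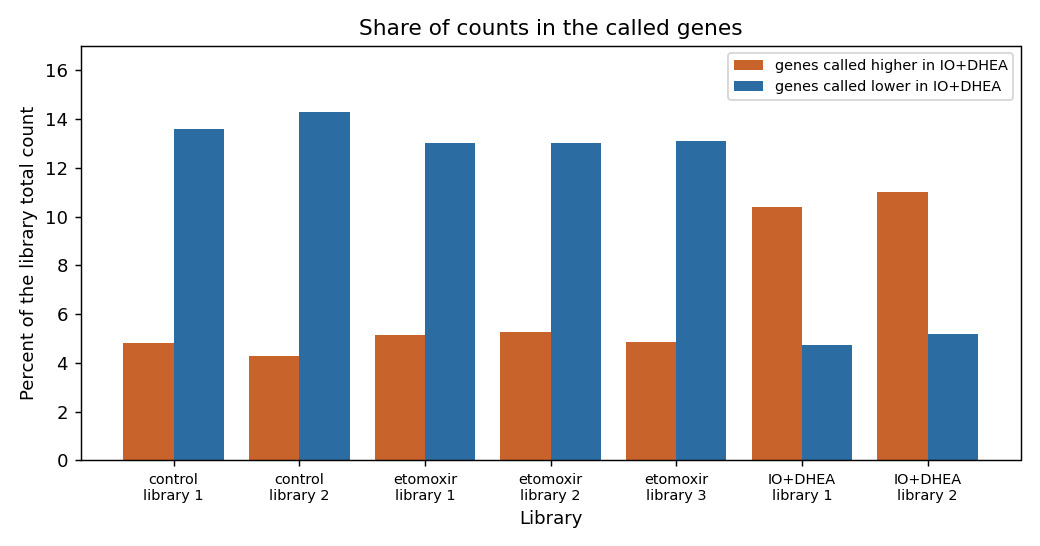
Percent of each library's total count that fell in the 360 genes called higher and the 787 called lower in IO+DHEA. Called lower genes take 13.6% and 14.3% in the controls and 4.73% and 5.19% in IO+DHEA, and the etomoxir libraries are at 13.0% to 13.1%.

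The 100 most abundant genes of the control embryos were each at 1150 CPM or more. Of these, 2 rose and 11 fell by edgeR, beside 2.55% and 5.57% of all genes tested. Calls depended on level, and of the 326 genes over 500 CPM in etomoxir 15 rose and 38 fell. In both IO+DHEA libraries 0 of the 100 genes were at least 2-fold higher and 4 at least 2-fold lower. The shares were 4.33% and 9.24% of all genes tested, and 2.15% and 6.13% of the 326. The 100 genes were ranked on the controls, 1 side of the comparison, which favours falls. Among the 100 most abundant genes of IO+DHEA libraries 1 and 2 were 68 and 71 of them, with 58 in both. The same count was not made between the controls. At the other end, 12961 genes had at least 10 counts in each control. Of these, 261 had 0 counts in both IO+DHEA libraries. Among the 261, 55 were called, beside 8.12% of all genes tested. Control means of the 261 ran from 0.103 to 5.22 CPM with a median of 0.338, and 22 were at a mean of at least 1 CPM. Another 959 were at 0 in IO+DHEA library 1 alone and 170 in library 2 alone. Conversely, 30 of the 11481 genes with at least 10 counts in each IO+DHEA library had 0 counts in both controls, at means of 0.131 to 4.88 CPM, and 1 of them was called. Both sets were chosen by their zeros in these same libraries and passed the filter through 1 group only. Their calls are therefore a description only.

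The number of called genes changed with the libraries in the fit and with the test. A fit of the 4 libraries alone, with its own estimate of spread and 2 residual degrees of freedom in place of 4, called 0 genes (0%) by edgeR, and 2536 genes had an unadjusted p under 0.05. A limma-voom fit of 7 libraries that let each group have its own weight gave 1.45 to the controls and 0.352 to IO+DHEA, and called 95 genes (0.672%), 29 higher and 66 lower, all among the 1147. DESeq2 called 2914 (20.6%), 1308 higher and 1606 lower, among them all 1147. Leaving out libraries left 45 and 29 calls without control libraries 1 and 2, and 350, 171 and 111 when etomoxir libraries 1, 2 and 3 were dropped. Dropping IO+DHEA library 1 gave 2342 calls and dropping library 2 gave 4033, where the remaining treated library is assumed to vary like the other groups. The split by direction was 434 higher and 713 lower with median-of-ratios factors and 393 and 863 on library totals without factors. Upper quartile factors gave 643 higher and 582 lower genes and shifted the median over all genes from 0.01 to 0.21 on the log2 scale. A filter of 5 CPM in 2 libraries gave 855 higher and 858 lower.

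**Figure D5:**
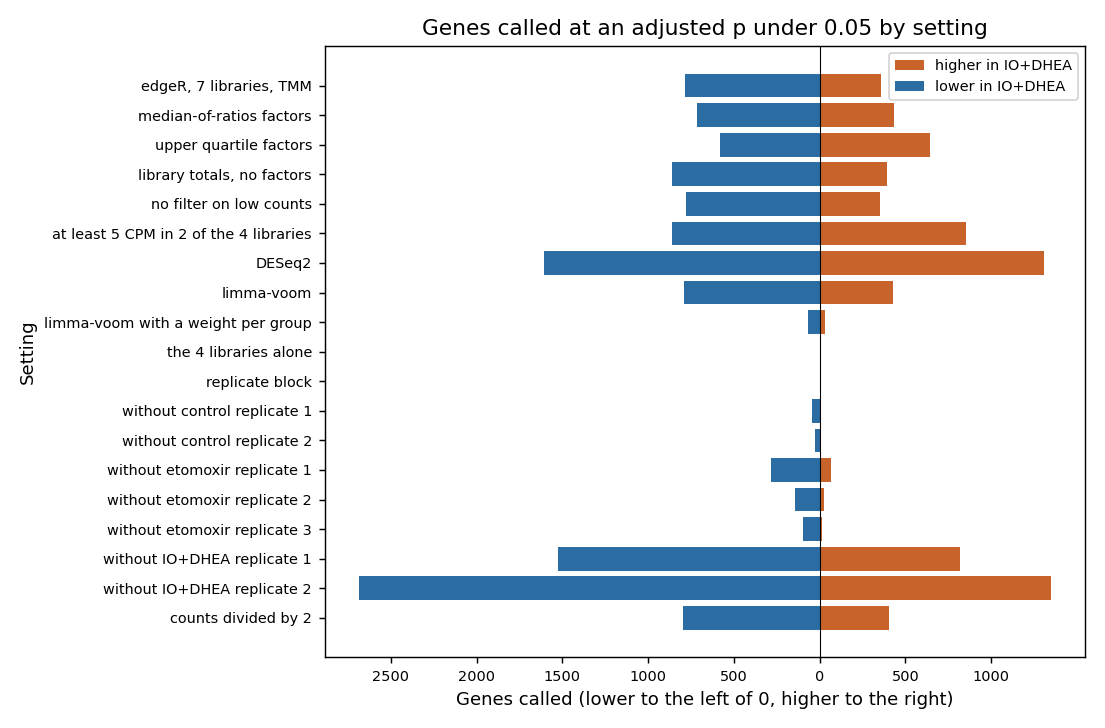
Genes called at an adjusted p under 0.05 under each setting, with genes higher in IO+DHEA to the right of 0 and genes lower to the left. The count is 1147 with edgeR on 7 libraries, 0 with the 4 libraries alone or with a term for the replicate number, 95 with a weight per group and 2914 with DESeq2.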

How the data were processed

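The table deposited by the authors held raw counts per Ensembl gene ID. The submitters' processing notes name build ARS-UCD1.2, STAR 2.7.9a, featureCounts 2.0.1 and cutadapt 1.18. The counting of strand, read pairs and multi-mapping reads was not given in the sources used here, so overlapping genes and near-identical copies are uncertain. Among counts of 1 to 20, 67.7% to 78.3% were even, so a count may not be 1 fragment. Libraries of a group differed by more than sampling noise (chi-square per degree of freedom 216 in control and 904 in IO+DHEA).

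Groups follow the treatment label, and numbers the titles. R 4.3.3, edgeR 4.0.16, limma 3.58.1, DESeq2 1.42.0 and matplotlib 3.10.9 were used. The edgeR fit had 1 term per group, 4 residual degrees of freedom and two-sided tests, adjusted by Benjamini-Hochberg. It was run on simulated data in which each gene had the same spread in every group. This cannot show how the fit does here, where the IO+DHEA libraries lay further apart than the controls. SEs come from the fold change and the test statistic. Members, tests and 40 pathway and marker lists were chosen with earlier results of these data known. Without symbols no list could be applied, and the rule for named genes fell back to the largest 2 rises and 2 falls among called genes of at least 50 CPM on average. The weight per group was added after the data were seen.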

Additional observations from a re-analysis of the deposited data

Results flagged for a closer look

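The named genes that rose in IO+DHEA were also above both controls in every etomoxir library. They were chosen for their rise over the same controls, which favours this, and 1839 of the 14129 genes tested (13%) stood so, so it is given as values only. ENSBTAG00000049812 was at 61.2, 25.4 and 13.9 CPM in etomoxir libraries 1, 2 and 3, a mean of 33.5 ± 24.7 CPM (SD, n = 3), against 8.53 and 10.1 CPM in the controls. ENSBTAG00000048955 was at 23.3, 13.1 and 6.65 CPM, a mean of 14.3 ± 8.38 CPM (SD, n = 3), against 3.75 and 6.04 CPM in the controls. Both genes had their highest etomoxir value in etomoxir library 1, and all etomoxir values were below both IO+DHEA libraries. For ENSBTAG00000048955 the lowest etomoxir library was close to the higher control, and no test of etomoxir against control was made here.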

How the results depend on the processing

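No named gene changed direction in the 18 alternative fits. The genes were chosen for the largest folds in these same libraries, which every fit reuses, so a reversal was hardly possible. ENSBTAG00000052397 and ENSBTAG00000002290 missed the threshold in 2 fits each (the 4 libraries alone and the replicate block) and ENSBTAG00000049812 and ENSBTAG00000048955 in 4 (also without each control). The number of called genes stayed within 1.5 times 1147 in 7 of 18. It was 2914 with DESeq2 (1308 higher, 1606 lower), 95 with a weight per group (29 and 66), and 0 with the 4 libraries alone. The replicate block gave 0 calls in either direction, with 2630 genes at an unadjusted p under 0.05 by edgeR. Deviations of libraries of the same number in control and IO+DHEA had r = -0.0187. With 2 libraries per group this is 1 value up to its sign. It cannot show whether libraries of the same number shared a culture or a run, which was not tested. Leaving out 1 library gave 29 to 4033 calls, 1 to 1349 higher and 28 to 2684 lower. Higher calls were 643 with upper quartile factors and 855 with at least 5 CPM. Genes past 2-fold in both IO+DHEA libraries numbered 330 higher and 474 lower with at least 5 CPM, 155 and 531 when 4-fold was required, and 1092 to 2026 higher and 1705 to 3620 lower without 1 library. Fewer genes tested, a larger fold or fewer libraries set these last counts by construction. For the fits the cause was not tested. Of genes under 1 CPM in etomoxir, 39% were at 0 counts in IO+DHEA library 1 and 13.6% in library 2, which bounds what these libraries show of rare transcripts.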
